A study of Mus musculus with 8 samples.

Results

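The antioxidant and NADPH-producing genes described here were 38 genes chosen by symbol from the table of counts per gene: the peroxiredoxins, superoxide dismutases, catalase, the glutathione, thioredoxin and glutaredoxin systems, the NRF2 pair with heme oxygenases and ferritins, and enzymes of NADPH production and the pentose phosphate pathway. All 38 were among the 22065 named genes of the table, and all 38 passed the filter on low counts. RNA-seq was done on 8 libraries of bone marrow HSCs from C57BL/6 mice of 8 to 10 weeks, each made from 100 sorted cells, 4 labelled Mitol knockout (Mitol Δ/Δ) and 4 labelled control. By the study's methods, the Mitol Δ/Δ mice carried floxed Mitol alleles and MX1-cre, which acts throughout the hematopoietic lineage and in other cells that respond to interferon. The controls were floxed littermates without the cre, and both groups received Poly:IC and were studied 1 week later. The comparison asks how loss of MITOL, an E3 ubiquitin ligase of the outer mitochondrial membrane, changes gene expression in HSCs, and it is followed here through the genes that handle reactive oxygen. Values are counts divided by DESeq2 size factors (normalized counts), n = 4 libraries per group, and SD is the spread between libraries. Values in every library stand in the order of libraries 1 to 4. A gene was called where edgeR's quasi-likelihood test over 16444 genes gave an adjusted p-value under 0.05, and SE is the standard error of a log2 fold change in that test.

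Peroxiredoxins reduce hydrogen peroxide with a reactive cysteine, and thioredoxin returns most of them to the reduced state with electrons that thioredoxin reductase takes from NADPH. Glutathione peroxidases and glutaredoxins draw on NADPH in the same way through glutathione reductase, while superoxide dismutases and catalase work without it. Many of these genes are known targets of the transcription factor NRF2, which KEAP1 holds at low levels until electrophiles or oxidants release it, and HSCs are known to be sensitive to reactive oxygen. Several of the proteins, NRF2 above all, are also controlled after translation, which counts of mRNA do not show.

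Library totals on named genes ran from 7214935 to 12398138, and 33 of the 38 members had at least 100 counts in every library. The targeted gene, listed as Marchf5, had 232 to 308 counts after normalization in Mitol Δ/Δ HSCs, against 262 to 333 in controls (log2 fold change -0.15, SE 0.13, adjusted p = 0.498 by edgeR), so the count over the whole gene does not tell the genotypes apart here. Genes of the sorting gate or of HSC identity (Slamf1, Procr, Kit, Mecom, Hlf, Cd34 and Cd48) had counts in every library, and their sum was 17402 to 21359 in Mitol Δ/Δ HSCs, against 25564 to 31047 in controls. Of these, Kit and Hlf were called lower and make up much of that sum, Cd48, a marker the gate selects against, was called higher (22.2 to 63.4, against 4.49 to 21.7), and Slamf1 had 412 to 669, against 299 to 409.7 (edgeR adjusted p = 0.0501). Sums of 12 S phase genes were 15857 to 34744 in Mitol Δ/Δ HSCs, against 9762 to 18115 in controls, and those of 12 G2/M genes were 6519 to 13558 and 3043 to 6645. Of the 11 erythroid markers 2 were called higher, and their sum was 1180 to 5325 against 474 to 935, highest in Mitol Δ/Δ library 3, with Hba-a2 and Slc4a1 each at 0 in 4 of 8 libraries. Sums were 364 to 521 against 228 to 365 for 8 macrophage markers, 485 to 1023 against 405 to 616 for 8 neutrophil markers and 233 to 338 against 128 to 204 for the T and NK cell markers, with 0, 0 and 1 called. Prtn3 made up most of the neutrophil sum (462 to 1006 against 332 to 566). S100a9 was at 0 in every Mitol Δ/Δ library, against 2.64 to 21.3 in controls. Nkg7, the marker called, made up most of the T and NK cell sum (203 to 302 against 92.5 to 156). Cd4 had a log2 fold change of -0.60 (edgeR adjusted p = 0.258), so neither sum describes its whole list. The megakaryocyte (2381 to 5085 against 3143 to 4827), B lineage (130.0 to 149 against 141 to 204) and endothelial sums (1297 to 2043 against 1365 to 1687) overlapped between the groups, as did the mast cell marker Cpa3 (7.32 to 13.8 against 11.3 to 21.1), and 1 megakaryocyte marker was called lower. Of the T and NK cell markers Cd3e, Cd3g and Cd8a had no row among the genes analysed, nor did Ms4a1, Ebf1 and Pax5 of the B lineage, Gp1bb of the megakaryocyte, or Mcpt8, Cma1, Ms4a2, Fcer1a and Prss34 of the mast cell and basophil markers.

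By edgeR's quasi-likelihood test, 6 of the 38 members were called higher in Mitol Δ/Δ than in control HSCs and 0 were called lower. Over all genes tested, 8.43% were called, 4.68% higher and 3.75% lower. The 6 were Prdx1, Prdx2, Prdx3 and Prdx4, the 4 typical 2-Cys peroxiredoxins, Txn1, the cytosolic thioredoxin that reduces Prdx1 and Prdx2, and Hmox1, the inducible heme oxygenase. The groups did not overlap in 9 members, 8 of them higher in Mitol Δ/Δ HSCs (Prdx1, Prdx2, Prdx3, Prdx4, Hmox1, Sod1, Gclm and Glrx5) and 1 lower (Txnrd2), where 15.4% of all genes tested had separate groups, 8.17% higher and 7.18% lower. The fold changes of the members had a median of 0.14 on the log2 scale, beside -0.02 over all genes tested. Of the members 24 were above 0 and 14 below, where 47.7% of all genes tested were above 0. The fold changes of the members ran from -0.74 for Slc7a11 to 1.54 for Hmox1. DESeq2 called 10 members higher and 0 lower, adding Gclm, Sod1, Gsr and Glrx5, with 14% of all genes called in either direction. With 100 cells of bulk RNA per library, a change in the make-up of the sorted cells and a change in RNA per cell cannot be told apart.

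**Figure D1:**
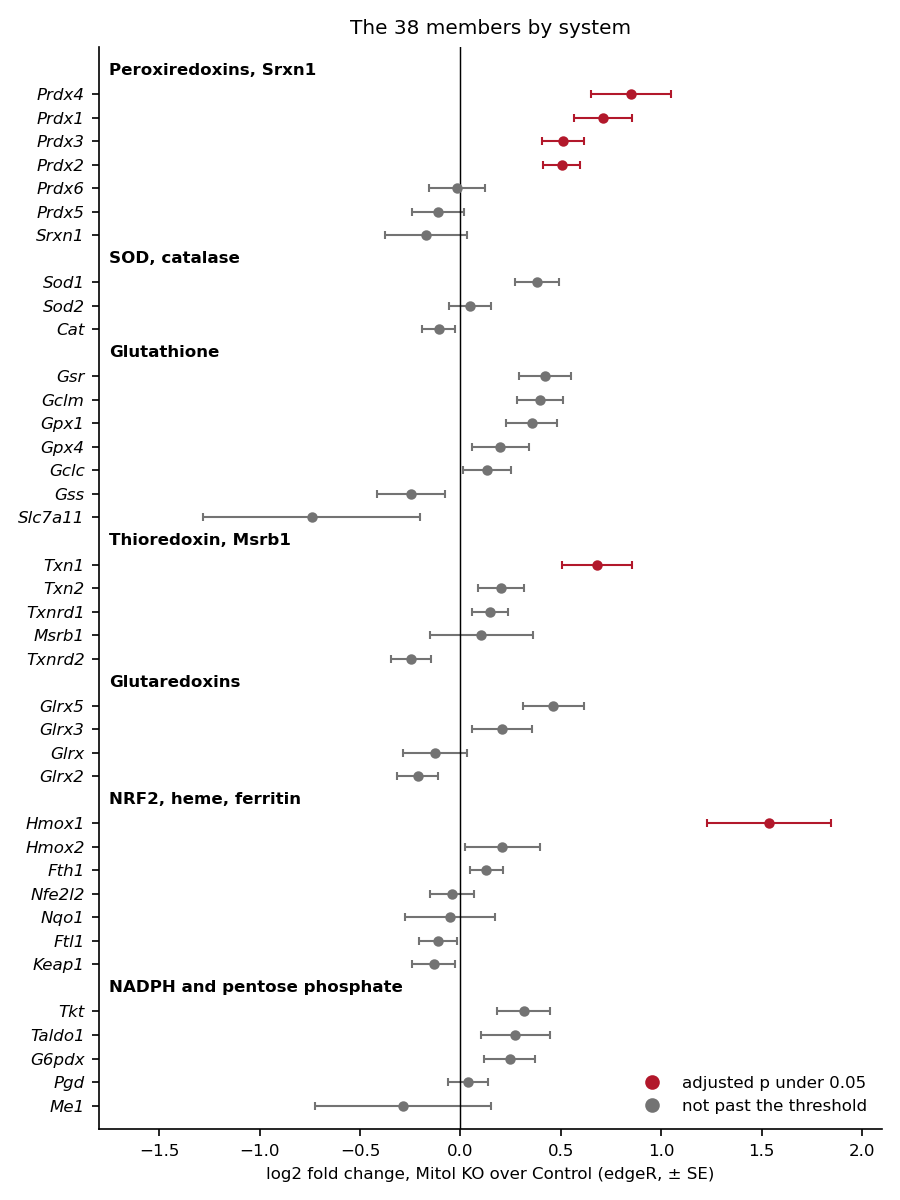
Log2 fold change of each of the 38 members, Mitol Δ/Δ (Mitol KO) over Control, from edgeR (x axis), grouped by system, with bars of 1 SE and red for an adjusted p-value under 0.05. Prdx1 to Prdx4, Txn1 and Hmox1 are red, and the other 32 members lie between -0.74 and 0.46.

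The number of members called moved with single libraries. It was 1, Prdx2, without control library 2, when 359 genes (2.14% of those tested) were called in all. It was 10 without control library 1, which added Gpx1, Glrx5, Tkt and Taldo1, with 7.83% of all genes called. Without Mitol Δ/Δ library 4 the number was 8, with 14.8% of all genes called. The number with separate groups then rose from 9 to 14. Leaving out a library can only keep or raise that number, and its share over all genes was not computed. The number called stayed at 4 to 6 without any other library, with 2.91% to 4.86% of all genes called. Prdx2 was called in all 8 of these fits.

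The 250 bases before the start site of the 5 called members of the peroxiredoxin and thioredoxin systems are shown with those of Sod1 and Gclm, whose groups were also separate, so that the letters these members share and do not share can be seen. Those of Glrx5 and Txnrd2, whose groups were separate as well, are not shown. They are from RefSeq on GRCm38.p6, 5′ to 3′ on the strand of the gene, and 34 of the 38 members had such a window (Prdx6, Gclc, Gsr and Hmox1 had none). Capitals mark TGACNNNGC on either strand, the core of the antioxidant response element to which NRF2 binds together with small MAF proteins.
Prdx1 (chr4:116685349-116685598, plus strand): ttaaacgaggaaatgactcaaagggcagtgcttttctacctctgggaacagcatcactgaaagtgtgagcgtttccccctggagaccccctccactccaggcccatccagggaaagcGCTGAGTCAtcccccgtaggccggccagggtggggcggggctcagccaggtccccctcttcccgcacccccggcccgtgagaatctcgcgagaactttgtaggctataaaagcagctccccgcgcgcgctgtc
Prdx2 (chr8:84969372-84969621, plus strand): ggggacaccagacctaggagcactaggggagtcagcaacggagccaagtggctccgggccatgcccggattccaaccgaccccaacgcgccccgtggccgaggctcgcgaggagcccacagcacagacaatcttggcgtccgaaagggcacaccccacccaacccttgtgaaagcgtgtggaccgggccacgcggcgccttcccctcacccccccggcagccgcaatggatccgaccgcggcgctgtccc
Prdx3 (chr19:60874539-60874788, minus strand): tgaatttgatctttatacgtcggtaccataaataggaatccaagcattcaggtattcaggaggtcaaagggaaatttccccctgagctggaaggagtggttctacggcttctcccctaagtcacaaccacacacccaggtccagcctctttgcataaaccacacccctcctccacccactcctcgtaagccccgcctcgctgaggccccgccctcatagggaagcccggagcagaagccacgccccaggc
Prdx4 (chrX:155338461-155338710, minus strand): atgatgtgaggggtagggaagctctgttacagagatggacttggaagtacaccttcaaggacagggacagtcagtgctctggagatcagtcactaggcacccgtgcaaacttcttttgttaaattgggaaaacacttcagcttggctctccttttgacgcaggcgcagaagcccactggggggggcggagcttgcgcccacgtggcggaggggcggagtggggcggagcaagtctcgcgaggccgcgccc
Txn1 (chr4:57956412-57956661, minus strand): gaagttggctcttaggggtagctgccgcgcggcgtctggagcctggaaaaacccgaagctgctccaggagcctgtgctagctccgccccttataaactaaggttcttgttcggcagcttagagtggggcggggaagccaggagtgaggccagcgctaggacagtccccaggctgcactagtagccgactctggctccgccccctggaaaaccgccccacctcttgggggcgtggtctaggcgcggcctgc
Sod1 (chr16:90220512-90220761, plus strand): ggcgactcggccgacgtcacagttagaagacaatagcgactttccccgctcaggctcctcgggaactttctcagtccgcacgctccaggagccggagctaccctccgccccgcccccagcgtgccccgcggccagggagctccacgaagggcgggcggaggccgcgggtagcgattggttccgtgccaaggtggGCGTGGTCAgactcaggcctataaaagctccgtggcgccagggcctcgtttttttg
Gclm (chr3:122245307-122245556, plus strand): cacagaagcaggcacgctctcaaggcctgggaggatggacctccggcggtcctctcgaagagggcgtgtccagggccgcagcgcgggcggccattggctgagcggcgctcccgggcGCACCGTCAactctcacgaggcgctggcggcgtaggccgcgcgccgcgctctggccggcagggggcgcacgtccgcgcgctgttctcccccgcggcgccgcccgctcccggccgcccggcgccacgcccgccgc

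The core was in the 300 base window (250 before to 50 after the start) of 9 of 34 members, Prdx1, Srxn1, Sod1, Gclm, Txnrd1, Nfe2l2, G6pdx, Pgd and Me1, and in 13.99% of the 27025 genes with a window. Only Prdx1 of these 9 was called, and Prdx2, Prdx3, Prdx4 and Txn1 did not hold these letters in their windows. Neither did Glrx5 and Txnrd2, so Sod1 and Gclm do not stand for all uncalled members with separate groups. The match in Prdx1 began 133 bases before the start, on the reverse strand. Those of Gclm, Txnrd1, G6pdx and Sod1, on the reverse strand as well, began 134, 92, 57 and 56 bases before it. With 1 more base, an adenine after the last one, the motif was in 2 members, Txnrd1 and Pgd, and in 3.45% of all genes. The match in Prdx1 also overlaps the site of AP-1 factors, TGACTCA, which was in 4 of 34 members (Prdx1, Srxn1, Glrx and Me1) and in 5.95% of all genes. A match in these windows is a description of the letters and not of binding.

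Transcripts of the typical 2-Cys peroxiredoxins, whose proteins are known to occupy different compartments, were all higher in Mitol Δ/Δ HSCs. Protein in these compartments was not measured by these counts. Prdx1 (chromosome 4 of GRCm39, 116532123 to 116558398), the abundant cytosolic enzyme, had 2676, 2849, 2238 and 1709 normalized counts in libraries 1 to 4 of the Mitol Δ/Δ group and 1602, 1415, 1504 and 1202 in control libraries 1 to 4. Mitol Δ/Δ libraries 1 and 2 were the highest, and library 4 exceeded the highest control by little. Its log2 fold change was 0.71 (SE 0.14, edgeR adjusted p = 0.0170, 4 of 4 libraries above every control). Prdx2 (chromosome 8, 85693354 to 85702350), a cytosolic enzyme known for its abundance in red cells, had 1887, 1803, 1600.2 and 1549 in Mitol Δ/Δ HSCs, against 1208, 1127, 1323 and 1105 in controls. The gap between the lowest Mitol Δ/Δ and the highest control library was wider than the range of the controls. The log2 fold change was 0.50 (SE 0.094, edgeR adjusted p = 0.0122, 4 of 4 libraries). Mitol Δ/Δ library 3, which had the highest erythroid sum, was the third of the 4 in Prdx2. The erythroid sums did not overlap between the groups, and their part in the difference in Prdx2 was not tested.

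Prdx3 (chromosome 19, 60852489 to 60863017), the peroxiredoxin of the mitochondrial matrix, had 1053, 1355, 1102 and 1255 in Mitol Δ/Δ HSCs, against 923, 817, 817 and 744 in controls. Here libraries 2 and 4 were the highest of the Mitol Δ/Δ group, unlike in the other 3. The log2 fold change was 0.51 (SE 0.10, edgeR adjusted p = 0.0170, 4 of 4 libraries). Prdx4 (X chromosome, 154106813 to 154123750), the peroxiredoxin of the endoplasmic reticulum, had 977, 1040.2, 581 and 533 in Mitol Δ/Δ HSCs, against 488, 406, 432 and 388 in controls. Libraries 1 and 2 of the Mitol Δ/Δ group stood well above libraries 3 and 4, which in turn lay just above the highest control. The log2 fold change was 0.85 (SE 0.20, edgeR adjusted p = 0.0261, 4 of 4 libraries). Summed over Prdx1 to Prdx4, a list put together after the values were seen, normalized counts were 6052 ± 927 (SD) in Mitol Δ/Δ HSCs, against 3876 ± 348 in controls.

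Without control library 2 the calls of Prdx1 and Prdx3 fell just short (log2 fold changes 0.70 and 0.51, edgeR adjusted p = 0.0560 each). The call of Prdx4 was lost without Mitol Δ/Δ library 1 (adjusted p = 0.0718) or 2 (0.0703), or control library 2 (0.0771), 3 (0.0595) or 4 (0.0754), with log2 fold changes of 0.69 to 1.02 over the 8 fits. Prdx1 overlaps AV051173 on the other strand, Prdx2 overlaps Gm49661, Junb and Rnaseh2a, and Prdx4 overlaps Acot9, and how the counting treated strand is not given in the sources used here. Prdx3 overlaps no annotated gene.

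The 2 other peroxiredoxins did not pass the threshold. Prdx5, an atypical 2-Cys enzyme found in mitochondria, peroxisomes and cytosol, had 382 to 516 counts after normalization in Mitol Δ/Δ HSCs, against 430 to 578 in controls (log2 fold change -0.11, SE 0.13, edgeR adjusted p = 0.630). Prdx6, the 1-Cys enzyme, had 2528 to 2609 in Mitol Δ/Δ HSCs, and 2826, 2858, 2906 and 1725 in control libraries 1 to 4 (log2 fold change -0.02, SE 0.14, edgeR adjusted p = 0.957). Control library 4 was far below the other 3, and the sign of the fold change turned with DESeq2 size factors. Srxn1, which encodes the sulfiredoxin that repairs overoxidized 2-Cys peroxiredoxins and is a known NRF2 target, had 160 to 282 and 178 to 312 (log2 fold change -0.17, SE 0.20, edgeR adjusted p = 0.635).

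**Figure D2:**
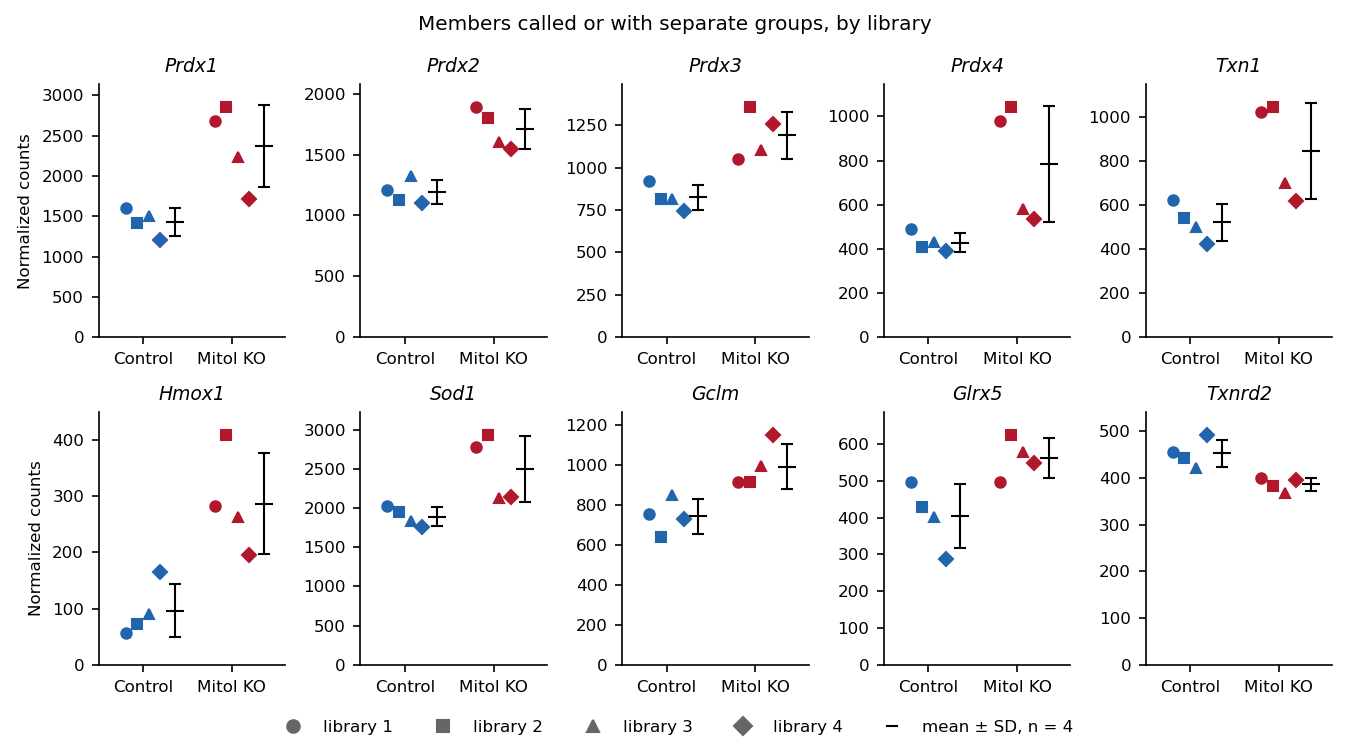
Normalized counts (y axis, from 0) of the 10 members that were called or whose groups did not overlap, in each Control (blue) and Mitol Δ/Δ (Mitol KO, red) library, with the shape giving the library number and a black bar the mean ± SD (n = 4). Txn1 alone of the 10 overlaps, at 621 in Mitol Δ/Δ library 4 and 625 in control library 1, and Txnrd2 alone lies lower in Mitol Δ/Δ HSCs.

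The transcript of the cytosolic thioredoxin was higher as well. Txn1 (chromosome 4, 57934208 to 57956424) had 1025, 1045, 700.3 and 621 counts after normalization in Mitol Δ/Δ HSCs, against 625, 541, 499 and 426 in controls. Libraries 1 and 2 of the Mitol Δ/Δ group were again the highest, and library 4 lay just under control library 1. The log2 fold change was 0.68 (SE 0.17, edgeR adjusted p = 0.0345, 3 of 4 libraries above every control). The call was lost without Mitol Δ/Δ library 1 (adjusted p = 0.0939) or 2 (0.0960), or control library 2 (0.0825), 3 (0.0800) or 4 (0.0969). Txn1 overlaps Gm42293 and Gm57068 on the other strand.

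The rest of the thioredoxin system had smaller differences. Txnrd1, the cytosolic thioredoxin reductase and a selenoprotein, had 2574, 2506, 2290.4 and 2160.5 in Mitol Δ/Δ HSCs, against 2246, 2023, 2306 and 1932 in controls (log2 fold change 0.15, SE 0.089, edgeR adjusted p = 0.321). The groups overlapped, with 2 Mitol Δ/Δ libraries above every control. Txn2, the mitochondrial thioredoxin, had a log2 fold change of 0.20 (SE 0.11, edgeR adjusted p = 0.289). Txnrd2, the mitochondrial thioredoxin reductase, had 399.9, 383, 368 and 395 in Mitol Δ/Δ HSCs, against 456, 442, 422 and 491 in controls. Every Mitol Δ/Δ library lay below every control, and the log2 fold change of -0.25 (SE 0.10, edgeR adjusted p = 0.145) did not pass the threshold. Msrb1, a selenoprotein that reduces oxidized methionine, had 37.7 to 65.9 over the 8 libraries (log2 fold change 0.10, SE 0.26, edgeR adjusted p = 0.837).

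Among superoxide dismutases and catalase 0 of 3 were called. Sod1 (chromosome 16, 90017408 to 90027657), the copper and zinc enzyme of the cytosol, had 2782, 2928, 2128 and 2139 in Mitol Δ/Δ HSCs, against 2020.4, 1955, 1831 and 1752 in controls. The groups were separate, with libraries 1 and 2 of the Mitol Δ/Δ group far above the other 2. Its log2 fold change was 0.38 (SE 0.11, edgeR adjusted p = 0.0540, 4 of 4 libraries), and DESeq2 gave an adjusted p of 0.0182. Sod1 overlaps Scaf4 on the other strand. Sod2, the manganese enzyme of the mitochondrial matrix, had 536 to 573 in Mitol Δ/Δ HSCs, against 446 to 573 in controls (log2 fold change 0.05, SE 0.11, edgeR adjusted p = 0.815), with control library 4 the lowest. Cat, the peroxisomal catalase, had 1277, 1358, 1347 and 1507 in Mitol Δ/Δ HSCs, against 1485, 1490, 1479 and 1393 in controls, and 3 Mitol Δ/Δ libraries lay below every control (log2 fold change -0.11, SE 0.082, edgeR adjusted p = 0.426).

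In the glutathione system 0 of 7 members were called and 5 had fold changes above 0. The modifier subunit of glutamate-cysteine ligase, Gclm (chromosome 3, 122039126 to 122065061), had 913, 914, 995 and 1150.1 in Mitol Δ/Δ HSCs, against 757, 638, 852 and 729 in controls. Library 4 was the highest of the Mitol Δ/Δ group, and the groups were separate. The log2 fold change was 0.40 (SE 0.11, edgeR adjusted p = 0.0504, 4 of 4 libraries), with an adjusted p of 0.0125 by DESeq2. Gclm overlaps Gm6061 on its own strand and Gm17494 on the other. Gclc, the catalytic subunit of the same ligase, had a log2 fold change of 0.13 (SE 0.12, edgeR adjusted p = 0.519). Gsr, the NADPH-dependent glutathione reductase, had 622 to 881 in Mitol Δ/Δ HSCs, against 473 to 638 in controls (log2 fold change 0.42, SE 0.13, edgeR adjusted p = 0.0662, 3 of 4 libraries; DESeq2 adjusted p = 0.0267).

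Gpx1, the cytosolic and mitochondrial glutathione peroxidase, had 1185, 1236, 1279 and 1445 in Mitol Δ/Δ HSCs, against 1240, 899, 1031 and 808 in controls. Control library 1 lay within the Mitol Δ/Δ range (log2 fold change 0.35, SE 0.13, edgeR adjusted p = 0.0998). Gpx4, which reduces lipid peroxides, had 346 to 577 in Mitol Δ/Δ HSCs, against 373 to 399.6 in controls, with Mitol Δ/Δ library 2 the highest (log2 fold change 0.20, edgeR adjusted p = 0.410). It shares coding sequence with 3 other annotated genes, of which 2 were among the named genes, with 245 counts, 7.16% of those of Gpx4. Gss, glutathione synthetase, had a log2 fold change of -0.25 (edgeR adjusted p = 0.379). Slc7a11, the cystine carrier and a known NRF2 and ATF4 target, had 3 to 25 raw counts per library (log2 fold change -0.74, SE 0.54, edgeR adjusted p = 0.416), so that its error was the largest of the 38.

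Of the 4 glutaredoxins 0 were called. Glrx5, which acts in iron-sulfur cluster assembly in mitochondria, had 496, 623, 578 and 548 in Mitol Δ/Δ HSCs, against 496, 429, 400.3 and 287 in controls. The groups were separate, but the lowest Mitol Δ/Δ library and the highest control differed by less than 1 normalized count. The log2 fold change was 0.46 (SE 0.15, edgeR adjusted p = 0.0766, 4 of 4 libraries; DESeq2 adjusted p = 0.0328). Glrx3, another iron-sulfur glutaredoxin, Glrx and the mitochondrial Glrx2 had log2 fold changes of 0.21, -0.13 and -0.21 (edgeR adjusted p = 0.416, 0.657 and 0.212). In Glrx2, 3 of 4 Mitol Δ/Δ libraries lay below every control.

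Neither the transcript of NRF2 nor that of KEAP1 passed the threshold. Nfe2l2, which encodes NRF2, had 490.0, 596, 611 and 652 in Mitol Δ/Δ HSCs, against 584, 612, 625 and 565 in controls (log2 fold change -0.04, SE 0.11, edgeR adjusted p = 0.844). Keap1 had 715, 686, 779 and 683 in Mitol Δ/Δ HSCs, against 886, 716, 685 and 816 in controls (log2 fold change -0.13, SE 0.11, edgeR adjusted p = 0.459). Both sets of 4 overlapped. Nqo1, a quinone reductase often read as a marker of NRF2 activity, had 75.1 to 143 in Mitol Δ/Δ HSCs, against 83.8 to 119 in controls (log2 fold change -0.05, SE 0.22, edgeR adjusted p = 0.906). Of 16 members widely listed as NRF2 targets, a list put together after the values were seen, Hmox1 and Prdx1 were called higher and 0 lower, and 11 had fold changes above 0. Of all genes tested, 4.68% were called higher and 47.7% had fold changes above 0. The list of 16 held Prdx1, Srxn1, Gclc, Gclm, Gsr, Slc7a11, Txnrd1, Nqo1, Hmox1, Fth1, Ftl1, G6pdx, Pgd, Tkt, Taldo1 and Me1. Txn1, which was called higher, was not on it, so the number called depends on which members were listed.

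Hmox1 had the largest fold change of the 38. It encodes heme oxygenase 1, which breaks heme down to biliverdin, carbon monoxide and iron, and lies on chromosome 8 from 75820241 to 75827217, where no other annotated gene overlaps it. It had 282, 408, 263 and 195 normalized counts in libraries 1 to 4 of the Mitol Δ/Δ group and 56.7, 73.4, 90.4 and 164 in control libraries 1 to 4. Control library 4 was the highest of its group, and the groups were still separate. The mean was 2.98 times that of the controls, with a log2 fold change of 1.54 (SE 0.31, edgeR adjusted p = 0.0158, 4 of 4 libraries). Without control library 2 it was 1.43 (adjusted p = 0.0548). Within the Mitol Δ/Δ group, the sums of macrophage markers were 436, 521, 384 and 364 in libraries 1 to 4, in the same order as Hmox1, and in the control group they were 365, 346, 228 and 229, in another order. The erythroid sums were 1180, 1271, 5325 and 2947 in Mitol Δ/Δ libraries 1 to 4. The part of either in the difference in Hmox1 was not tested.

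Hmox2, the constitutive heme oxygenase, had a log2 fold change of 0.21 (SE 0.19, edgeR adjusted p = 0.512). The ferritin chains that store iron had small differences. Fth1, the heavy chain, had 3265, 3888, 3585 and 3652 in Mitol Δ/Δ HSCs, against 3519, 2993, 3286 and 3192 in controls (log2 fold change 0.13, SE 0.084, edgeR adjusted p = 0.353). In all, 3 of 4 Mitol Δ/Δ libraries lay above every control. Ftl1, the light chain, had 878 to 1056 and 983 to 1175 (log2 fold change -0.11, SE 0.095, edgeR adjusted p = 0.495). In all, 17 other annotated genes share coding sequence with it, to which some reads could be assigned. Only 1 of them was among the named genes, with 107 counts, 1.27% of those of Ftl1.

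Of the 5 genes of NADPH production and the pentose phosphate pathway 0 were called, and 4 had fold changes above 0. G6pdx, Pgd and Me1 encode enzymes that make NADPH, whereas Tkt and Taldo1 do not and connect that pathway to glycolysis. Transketolase, Tkt, of the non-oxidative pentose phosphate branch, had 4647, 4955, 4011 and 3861 in Mitol Δ/Δ HSCs, against 4481, 3243, 3374 and 2777 in controls. Control library 1 lay within the Mitol Δ/Δ range (log2 fold change 0.31, SE 0.13, edgeR adjusted p = 0.156). G6pdx, the first enzyme of the oxidative branch, had 351 to 467 in Mitol Δ/Δ HSCs, against 308 to 394 in controls (log2 fold change 0.25, SE 0.13, edgeR adjusted p = 0.239). Pgd, the next NADPH-producing enzyme of that branch, had a log2 fold change of 0.04 (edgeR adjusted p = 0.848) and Taldo1, transaldolase, one of 0.27 (edgeR adjusted p = 0.341). Taldo1 shares coding sequence with Cep85l and Gm17823, whose counts in full came to 92.6% of its own. How many of those reads come from the shared sequence is not known, so its value is uncertain. Me1, the cytosolic malic enzyme, had 7 to 24 raw counts per library (log2 fold change -0.29, SE 0.44, edgeR adjusted p = 0.725).

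**Figure D3:**
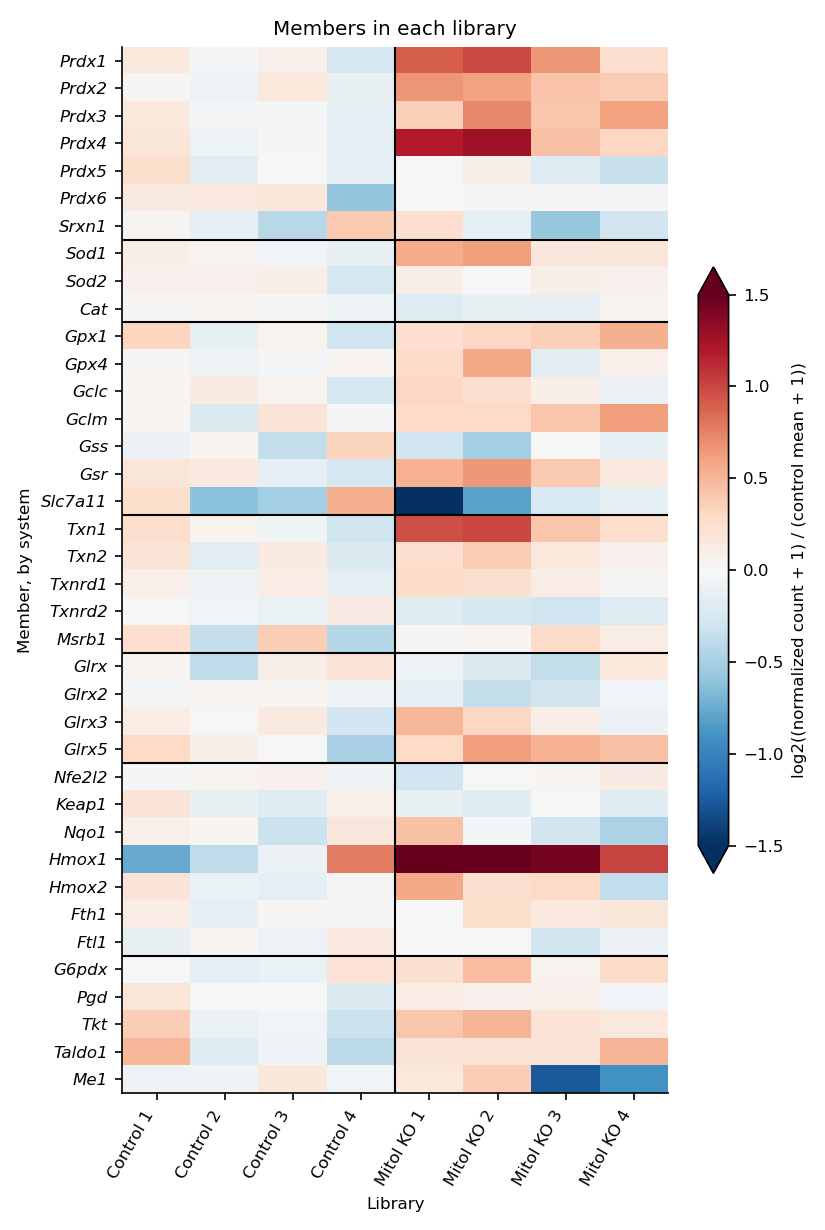
Each member (rows, by system in the order peroxiredoxins, superoxide dismutases and catalase, glutathione, thioredoxin, glutaredoxins, NRF2 with heme and ferritin, NADPH) in each library (columns), coloured by log2 of its normalized count plus 1 over the control mean plus 1, red above and blue below. Prdx1, Prdx4 and Txn1 are deepest red in Mitol Δ/Δ libraries 1 and 2, and Hmox1 is red in all 4.

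Summed over each system, normalized counts were 9295 ± 1040.3 (SD) in Mitol Δ/Δ HSCs, against 7174 ± 875 in controls for the peroxiredoxins with Srxn1, a ratio of 1.30. For the glutathione genes they were 4289 ± 105 and 3482 ± 258, for the NADPH and pentose phosphate genes, of which Tkt had the most counts, 6055 ± 539 and 4967 ± 907, for the thioredoxin genes 4633 ± 490 and 3979 ± 347. The superoxide dismutases and catalase summed to 4425 ± 364 and 3885 ± 210.1, the glutaredoxins to 1607 ± 51.1 and 1489 ± 116, and the NRF2, heme and ferritin genes to 6523 ± 315 and 6085 ± 268. The peroxiredoxin and glutathione sums did not overlap between the groups. The 5 selenoproteins (Gpx1, Gpx4, Txnrd1, Txnrd2 and Msrb1) included 0 called, with fold changes of -0.25 to 0.35. That list was put together after the values were seen.

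Of the 6 called members, all but Prdx3 were higher in both of Mitol Δ/Δ libraries 1 and 2 than in 3 and 4, as were genes of the cell cycle. The S phase and G2/M genes together summed to 46826, 47692, 31973 and 22377 in Mitol Δ/Δ libraries 1 to 4 and 21167, 18158, 20761 and 14491 in control libraries 1 to 4. Prdx1 to Prdx4 together had 6593, 7047, 5522 and 5046 in the Mitol Δ/Δ and 4221, 3766, 4077 and 3439 in the control libraries. In both groups the order of the libraries was the same for both sums. Of the 38 members, 18 were higher in both of Mitol Δ/Δ libraries 1 and 2 than in 3 and 4. Among them were Sod1, Gsr and Tkt as well as the called ones other than Prdx3. In the opposite order, 7 were lower, among them Gclm, Gpx1, Nfe2l2 and Taldo1. The shares of all genes in these orders were not computed. Over all genes, Mitol Δ/Δ libraries 1 and 2 also differed less from each other than from 3 and 4, so the split is not particular to the members.

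In Mitol Δ/Δ library 4, whose cell cycle sum of 22377 was close to the highest control sum of 21167, 5 of the 6 called members were above every control. There Prdx1, Prdx2, Prdx3 and Prdx4 had 1.19, 1.30, 1.52 and 1.24 times their control means and Hmox1 2.02 times. Txn1 had 1.19 times its control mean and lay under control library 1. The 6 members were called in a fit that included this library, so these values describe them and are not separate evidence. The share of all genes above every control in this library was not computed. In an edgeR fit with the log2 of the cell cycle sum as a covariate, added after the data were seen, 0 of the 38 members were called, and 1.21% of all genes tested. The fitted log2 fold changes were then 0.09 for Prdx1 (adjusted p = 0.876), 0.26 for Prdx2 (0.472), 0.47 for Prdx3 (0.275), 0.02 for Prdx4 (0.991), -0.02 for Txn1 (0.991) and 1.34 for Hmox1 (0.377). The cell cycle sums of the groups did not overlap, so the group and the sum cannot be told apart in this design.

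**Figure D4:**
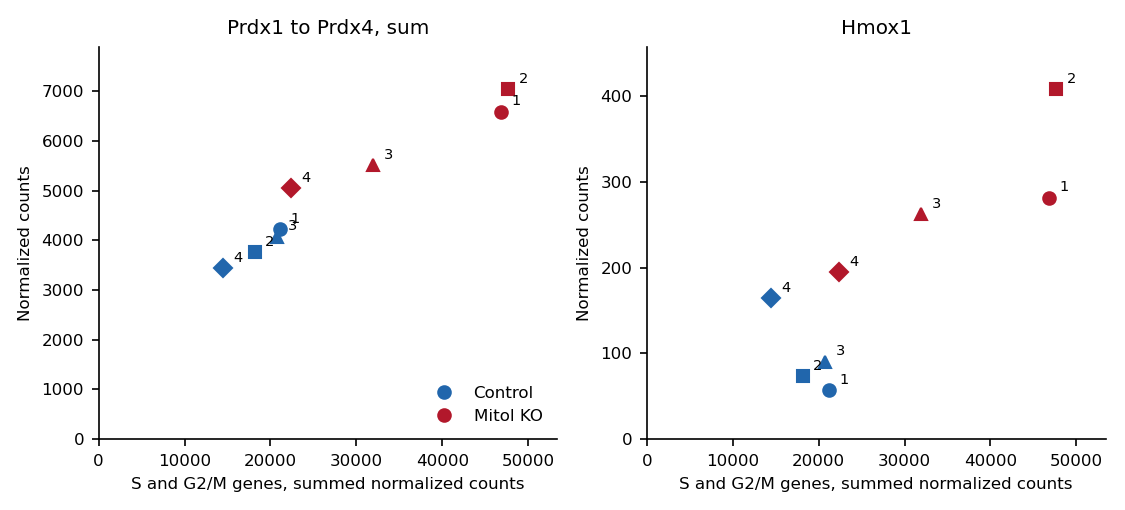
Summed normalized counts of Prdx1 to Prdx4 (left) and normalized counts of Hmox1 (right) against the summed normalized counts of 24 S and G2/M phase genes (x axis) in each library, with numbers giving the library, blue for Control and red for Mitol Δ/Δ (Mitol KO). On the left the order of the libraries within each group is the same on both axes, with Mitol Δ/Δ library 4 (22377 and 5046) above control library 1 (21167 and 4221). On the right the controls do not follow the x axis.

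Levels of different members were compared as counts scaled to library size (CPM) per kilobase of exon. Over merged exons of GENCODE vM39, Fth1 was the highest in control HSCs, at 100.2 ± 5.49 (SD), followed by Ftl1 at 86.3 ± 9.93 and Gpx1 at 74.5 ± 11.8, and the SDs of neighbours in this order overlapped. The highest of the other systems were Prdx3 (54.6), Cat (43.2), Tkt (35.8), Txnrd1 (32.6) and Glrx5 (11.4). Hmox1 had 6.02 in control and 16.8 in Mitol Δ/Δ HSCs on this scale, and the lowest were Me1 (0.296) and Slc7a11 (0.107). Per kilobase of the canonical transcript the highest of its system was Prdx6 in place of Prdx3, Txn1 in place of Txnrd1 and Glrx in place of Glrx5, and per kilobase of coding sequence Prdx6 and Sod1 in place of Prdx3 and Cat, so the order within those 4 systems rests on the length used. Per kilobase of the canonical transcript Prdx6 (103), Prdx2 (60.3), Prdx3 (60.2), Prdx1 (58.02) and Prdx4 (41.9) were the most abundant peroxiredoxins of control HSCs, and the neighbours Prdx2, Prdx3 and Prdx1 did not differ beyond their spread. Per kilobase of coding sequence the order was Prdx6 (324), Prdx1 (202), Prdx2 (167), Prdx3 (97.3), Prdx5 (56.6) and Prdx4 (41.03).

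**Figure D5:**
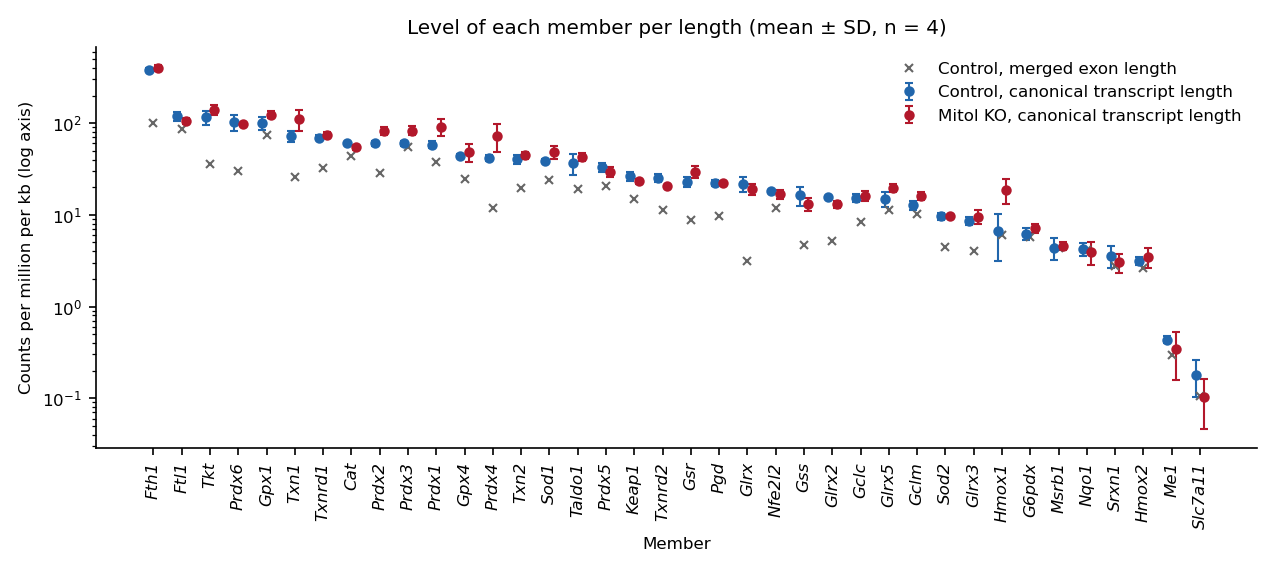
Level of each member (x axis) as CPM per kilobase of the canonical transcript, on a log axis, as mean ± SD of 4 Control (blue) and 4 Mitol Δ/Δ (Mitol KO, red) libraries, with crosses for Control levels over merged exon length. Fth1 is the highest by either length, and Me1 and Slc7a11 the lowest.

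Other genes of the same systems were read from 8 lists written from general knowledge, 80 genes of which 75 were tested. Of these, 6 were called higher and 4 lower, where 4.68% and 3.75% of all genes tested were, and their median log2 fold change was 0.06. The iron handling list held 4 of the 6. Of its 7 genes, Tfrc, the transferrin receptor that brings iron in, had 621, 760, 1224 and 972 in Mitol Δ/Δ HSCs, against 509, 609, 467 and 618 in controls (log2 fold change 0.68, SE 0.19, edgeR adjusted p = 0.0450, 4 of 4 libraries). Library 3, the one with the highest erythroid sum, was the highest in Tfrc, and the part of erythroid transcripts in this difference was not tested. Slc40a1, ferroportin, which exports iron, had 93.9, 81.1, 78.7 and 74.1 against 39.6, 52.1, 41.4 and 52.1 (log2 fold change 0.80, SE 0.21, edgeR adjusted p = 0.0392, 4 of 4 libraries). Aco1, which encodes the iron-sensing IRP1, and Steap3, a ferrireductase, had log2 fold changes of 0.51 and 0.93 (edgeR adjusted p = 0.0243 and 0.0358, 4 of 4 libraries each). The 4 have known roles in the uptake, export, sensing and reduction of iron. The calls of Tfrc, Slc40a1, Aco1 and Steap3 held in 2, 1, 4 and 3 of the 8 fits that each left out 1 library, and their adjusted p-values there reached 0.109, 0.104, 0.0765 and 0.0991. Tfrc was not called with upper-quartile factors, limma-voom or robust dispersion (adjusted p = 0.0659, 0.0685 and 0.0544), nor Slc40a1 with upper-quartile factors (adjusted p = 0.0520). With the cell cycle sum as a covariate, Tfrc was called (log2 fold change 1.25, edgeR adjusted p = 0.0245), and Slc40a1 (0.75, 0.518), Aco1 (0.53, 0.267) and Steap3 (0.34, 0.821) were not.

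Of 14 tested genes on the list of other NADPH sources, 2 were called higher, both mitochondrial. Me2, the mitochondrial malic enzyme, which works mainly with NAD, had 822, 759, 523 and 456 in Mitol Δ/Δ HSCs, against 344, 339, 334 and 350.2 in controls (log2 fold change 0.88, SE 0.17, edgeR adjusted p = 0.0139, 4 of 4 libraries). It was called without any 1 library. Mthfd2, the mitochondrial one-carbon dehydrogenase and a known ATF4 target, had 253, 395, 165 and 93.1 against 123, 75.5, 57.5 and 39.5 (log2 fold change 1.62, SE 0.42, edgeR adjusted p = 0.0354, 3 of 4 libraries), a call that held in 2 of the 8 fits without 1 library and was lost with limma-voom and robust dispersion (adjusted p = 0.0534 and 0.0651). Both were highest in Mitol Δ/Δ libraries 1 and 2, and with the cell cycle sum as a covariate their log2 fold changes were 0.27 and -0.16 (edgeR adjusted p = 0.731 and 0.954). Among 17 tested genes of glutathione use, Mgst2 and Gstt2, both glutathione transferases, fell by 1.14 and 0.56 on the log2 scale (edgeR adjusted p = 0.0179 and 0.0495, 4 and 3 of 4 libraries). Of the 11 genes of the NRF2 network, Mafg, a small MAF partner of NRF2, and Abcc1, an exporter of glutathione conjugates, fell by 0.42 and 0.28 on the log2 scale (edgeR adjusted p = 0.0238 and 0.0468, 4 of 4 libraries each). The calls of Mgst2, Mafg, Gstt2 and Abcc1 held in 6, 2, 1 and 0 of the 8 fits that left out 1 library, with adjusted p-values up to 0.0538, 0.0791, 0.129 and 0.134. On the lists of other peroxidases (2 tested), thioredoxin fold and methionine sulfoxide reductases (8), regulators of reactive oxygen (10) and selenocysteine synthesis (6), 0 genes were called.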

How the data were processed

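RNA-seq libraries were made from 100 sorted cells each. Per the labels and the study's methods, the authors sequenced 75 bp from 1 end, mapped the reads to mm39 with STAR, merged the files with SAMtools and assigned reads to genes with Subread; the deposited values are raw counts. The annotation and strand setting are not given in the sources used here. No row of the 23094 has fewer than 11 counts over the 8 libraries, and 1029 carry no gene symbol (0.335 to 0.467% of a library's counts) and were left out of library sizes and tests.

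Counts were tested with edgeR (version 4.0.16; quasi-likelihood, TMM, default filter, condition alone) over 16444 genes with Benjamini-Hochberg adjustment and an adjusted p-value threshold of 0.05. DESeq2 (version 1.42.0) gave size factors and, with limma-voom (limma version 3.58.1), an alternative test. No libraries within a group agreed within sampling noise. The labels do not say which mice the libraries came from, so p-values measure the spread between libraries. Counts come from PCR reads without molecular identifiers, and the 8 libraries limit precision.

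All 38 members were accounted for. Values in every library are given for members called, with separate groups, most abundant per length in their system, and for Nfe2l2 and Keap1, and wider-list genes are named where called, at most 4 per list. The members and lists were chosen with earlier results of these data known. Of the marker genes, 2 are not reported here and were left out of their lists' sums. Positions and lengths came from GENCODE vM39 on GRCm39, and promoter windows from RefSeq on GRCm38.p6. Shared coding sequence was searched with BLAST (version 2.17.0) at 95% identity over at least 75 bases. Alternatives covered scaling, filter, tool, the replicate number as a block, robust dispersion, each library left out, and, added after seeing the data, the cell cycle sum as a covariate and the canonical transcript length. The fits were tested on simulated counts.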

Additional observations from a re-analysis of the deposited data

Results flagged for a closer look

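For each of the 38 members and the 10 called genes of the wider lists, each group of 4 libraries was checked for a library far from the others by Dixon's test at the 95% level. Of 96 groups 7 had one, and chance gives about 1 in 20. Control library 4 was low in Prdx6 (1725 normalized counts, the other controls 2826 to 2906), Sod2 (446, the others 559 to 573) and Cat (1393, the others 1479 to 1490). Mitol Δ/Δ library 4 was high in Taldo1 (618, the others 496 to 501), and Mitol Δ/Δ library 2 in Abcc1 (2957, the others 2581 to 2607). Control library 3 was high in Me1 (18.8, the others 15.8 to 16.2) and low in Gstt2 (320.3, the others 372 to 382). None of the 6 called members had such a library in either group.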

How the results depend on the processing

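Over the 7 other scalings, filters, designs and tools that kept all 8 libraries, the 6 called members were called in each, and members called higher numbered 6 to 9 except with DESeq2, which called 10. The 0 lower stayed 0 in every fit. Upper-quartile factors moved the share of called genes that were higher from 55.6% to 41.3% and the median of all genes to -0.08 on the log2 scale. Prdx6 changed sign, to 0.00054 with DESeq2 size factors in edgeR, 0.0065 without the filter, 0.00041 with DESeq2, 0.021 with limma-voom and 0.011 with the replicate block, and Sod2 and Pgd did with upper-quartile factors (-0.013 and -0.023). Wider-list genes called higher, 6 in the report, were 4 with upper-quartile factors, limma-voom or robust dispersion, 7 with the block and 9 with DESeq2, and those called lower were 2 in place of 4 with DESeq2 size factors or without the filter, where Gstt2 (adjusted p = 0.0553 and 0.0652) and Abcc1 (0.0607 and 0.0831) were lost. The cause was not tested.

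With the replicate number as a block (replicate block) 9 members were called, the 6 and Sod1, Gclm and Gsr, and 1652 genes in all, and Slc40a1 and Abcc1 were not (adjusted p = 0.0648 and 0.0702). Correlations between same-numbered libraries, after the group means were taken out, were 0.0783, -0.0673, 0.0464 and 0.0643, so the numbers were not taken to pair the libraries.

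With 1 library left out, members called higher ran from 1 (without control library 2) to 10 (without control library 1), members with separate groups from 9 to 14, wider-list genes called higher from 1 to 12 and lower from 0 to 6. The share of all genes called higher ran from 0.995% (without control library 2) to 8.77% (without Mitol Δ/Δ library 4). Fold changes that changed sign in these fits ran from -0.17 to 0.047 for Prdx6, -0.028 to 0.084 for Sod2, -0.018 to 0.26 for Msrb1, -0.077 to 0.041 for Nfe2l2, -0.26 to 0.087 for Nqo1 and -0.026 to 0.12 for Pgd.

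With the cell cycle sum as a covariate, 0 members were called, 2 wider-list genes higher and 0 lower, and the median of the members was -0.025. Sign changes were to -0.033 for Sod2, 0.0014 for Cat, -0.11 for Gpx4, -0.21 for Gclc, 0.20 for Gss, 0.44 for Slc7a11, -0.017 for Txn1, -0.10 for Txn2, -0.091 for Txnrd1, -0.033 for Msrb1, 0.079 for Glrx, -0.28 for Glrx3, 0.13 for Nfe2l2, -0.32 for Hmox2, -0.13 for Pgd, -0.076 for Tkt and -0.16 for Mthfd2. The longer motif was in 2 members in place of 9. Of the 7 systems, 5 kept their most abundant member with coding length and 4 with the canonical length. Depth limits Slc7a11 and Me1, the 2 members with under 10 counts in some library.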
